A study of Mus musculus with 12 samples.

Results

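The genes described here are 6 members of the Bpif family, *Bpifa1*, *Bpifb1*, *Bpifb3*, *Bpifb4*, *Bpifb5* and *Bpifb6*, measured in the main olfactory epithelium (MOE) of mice that lack the J element and of their wild-type littermates. They were taken by name: each is the only gene symbol that the platform annotation gives to its probe set, and all 6 had 1 such probe set, out of 21789 probe sets with 1 symbol and 35556 in all. The rule uses names only. Bpif proteins (BPI fold containing) belong to a family with bactericidal/permeability-increasing protein and lipopolysaccharide-binding protein, whose fold makes a groove that holds lipids. Most of them are secreted into the mucus of the nose, mouth and upper airways, where Bowman glands, other nasal glands and secretory cells of the respiratory epithelium release them. The short members, named Bpifa, have 1 domain of this fold, and the long members, named Bpifb, have a pair of them.

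The series compared ΔJ mice with wild-type (WT) mice to learn which genes depend on the J element, an enhancer of class I odorant receptor genes that lies on another chromosome than the Bpif genes. ΔJ mice carried a homozygous deletion of this element, made with CRISPR-Cas9 in B6C3F1 eggs. All came from 1 founder (line #8) that was crossed back to C57BL/6NCrSlc, and heterozygotes of the second backcross generation were the stock for the arrays, so the comparison covers 1 deletion line. The labels give the strain of both groups as C57BL/6, and neither group carried a transgene. The ΔJ group held 6 mice, 3 males and 3 females, of which 5 were taken at P30 (postnatal day 30) and 1 at P33. The WT group held 6 mice, 2 males and 4 females, of which 4 were taken at P30 and 2 at P33. Total RNA of each MOE was hybridised to 1 Affymetrix Mouse Gene 1.0 ST array, and each mouse is 1 replicate. Every level below is a log2 signal minus the 75th percentile of its array, so that 0 is the level of that percentile and a difference of 1 is a doubling of signal. Levels of different genes are not ranked, and only a background range from Y-linked genes and the distance to the brightest probe set of each array serve as gauges.

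The 12 arrays fell into a second and a first set of 6 arrays, each with 3 ΔJ and 3 WT mice, by the SD of all log2 values on an array (2.20 to 2.23 in the second set, 2.07 to 2.13 in the first). The labels do not name these sets. Replicates 4 to 6 of both genotypes were in the second set, and so were all 3 P33 mice. The array of ΔJ replicate 5 had the lowest median correlation with the other arrays of its set, 0.981, against 0.987 to 0.993 for the other 11 arrays. *Omp*, which marks mature olfactory sensory neurons, lay between 3.88 and 4.05 in all 12 mice, and *Obp2a*, an odorant-binding protein that nasal glands secrete, between 4.83 and 5.08. *Scgb1a1*, the marker of club cells in respiratory epithelium, lay between -6.06 and -4.96, within or below the range of 3 Y-linked genes in the 7 females (-5.30 to -3.05), which served as a gauge of background signal. In tissue RNA of this kind, fewer cells of a type and less RNA per cell cannot be told apart.

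All 6 genes lie in 1 cluster. In the RefSeq annotation of GRCm38.p6 it spans chr2:153875045-154320644, 445.6 kb, and holds 13 Bpif genes in the order *Bpifb2*, *Bpifb6*, *Bpifb3*, *Bpifb4*, *Bpifa6*, *Bpifa2*, *Bpifa3*, *Bpifa1*, *Bpifa5*, *Bpifb1*, *Bpifb5*, *Bpifb9a* and *Bpifb9b*. *Bpifb6* lies at chr2:153900388-153912795, *Bpifb3* at chr2:153918198-153932996 and *Bpifb4* at chr2:153938217-153963852. Further along, *Bpifa1* lies at chr2:154142880-154149217, *Bpifb1* at chr2:154190818-154220343 and *Bpifb5* at chr2:154223742-154240902. The pseudogene *Gm14497* is annotated inside the interval. The protein coding gene *Cdk5rap1* overlaps it and runs past its end, and its span covers *Bpifb5*, *Bpifb9a* and *Bpifb9b*.

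The start regions of *Bpifa1*, *Bpifb1* and *Bpifb5* are shown because these members behaved differently across the mice, and that of *Bpifb9b* because its level followed *Bpifb5* from mouse to mouse. Each is 300 bases from RefSeq GRCm38.p6, 250 before and 50 after an annotated transcript start, on the plus strand. They are chr2:154142630-154142929 for *Bpifa1*, chr2:154190568-154190867 for *Bpifb1* (the upstream one of its 2 annotated starts), chr2:154223492-154223791 for *Bpifb5* and chr2:154306994-154307293 for *Bpifb9b*. Capitals mark TATAAA, the core of a TATA box, and AGAACA, a half-site of the androgen and glucocorticoid receptors, or its complement TGTTCT, both searched on both strands.
Bpifa1: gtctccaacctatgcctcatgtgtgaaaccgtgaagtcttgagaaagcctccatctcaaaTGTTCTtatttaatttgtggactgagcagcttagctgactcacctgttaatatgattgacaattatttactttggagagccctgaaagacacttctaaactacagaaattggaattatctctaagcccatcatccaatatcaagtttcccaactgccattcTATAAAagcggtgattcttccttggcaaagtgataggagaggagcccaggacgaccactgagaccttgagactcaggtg
Bpifb1: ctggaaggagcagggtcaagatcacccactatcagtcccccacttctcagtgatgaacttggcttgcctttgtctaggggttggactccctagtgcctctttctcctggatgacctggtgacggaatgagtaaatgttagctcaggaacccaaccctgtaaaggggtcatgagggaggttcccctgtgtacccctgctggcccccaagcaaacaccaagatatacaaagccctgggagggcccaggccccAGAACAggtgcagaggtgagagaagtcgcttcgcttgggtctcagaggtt
Bpifb5: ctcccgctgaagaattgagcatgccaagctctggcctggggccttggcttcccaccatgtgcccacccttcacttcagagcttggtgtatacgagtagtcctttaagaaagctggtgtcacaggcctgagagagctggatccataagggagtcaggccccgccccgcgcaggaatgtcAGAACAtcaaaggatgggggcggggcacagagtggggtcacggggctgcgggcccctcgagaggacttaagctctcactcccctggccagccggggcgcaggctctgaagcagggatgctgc
Bpifb9b: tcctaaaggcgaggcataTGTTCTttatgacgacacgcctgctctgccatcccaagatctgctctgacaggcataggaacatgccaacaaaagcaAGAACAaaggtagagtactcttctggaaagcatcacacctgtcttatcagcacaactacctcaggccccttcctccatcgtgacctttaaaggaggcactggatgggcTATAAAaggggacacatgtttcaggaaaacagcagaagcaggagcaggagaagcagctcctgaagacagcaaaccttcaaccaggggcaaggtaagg
Of these 4 windows, TATAAA was found in those of *Bpifa1* and *Bpifb9b*, and AGAACA in all 4. Counting 1 window per gene, AGAACA was present in 4 of the 6 members (*Bpifa1*, *Bpifb1*, *Bpifb5* and *Bpifb6*) and in 9 of the 13 genes of the cluster, and 19.0% of all 32851 promoter windows of this length hold it. TATAAA was present in 1 of the 6 members and in 4 of the 13 genes, against 13.6% of all windows. The forkhead motif TGTTTAC was found in 0 of the 13, against 3.65% of all windows. In *Bpifa5* the letters of TATAAA and TGTTCT overlap by 1 base. Aligned over their windows, *Bpifb5* and *Bpifb9b* shared 46.7% of positions and *Bpifb5* and *Bpifa1* 38.0%, where the median of the 78 pairs of the cluster was 45.5%. *Bpifb9a* and *Bpifb9b* shared 90.6%, and whether their probe sets tell these near copies apart was not tested. These matches are a description of the letters in the windows.

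Deletion of the J element left no detectable change in any of the 6 genes. With limma, 0 of the 6 were called at an adjusted p under 0.05, and before adjustment 0 of the 6 reached 0.05 as well. Over the array 48 of 35556 probe sets were called (0.135%), and 1185 reached 0.05 before adjustment (3.33%). In 0 of the 6 were the ΔJ and WT mice separated without overlap, against 0.259% of all probe sets with every ΔJ mouse lower and 0.0422% with every ΔJ mouse higher. The median difference of the 6 genes was -0.02, beside -0.03 over all probe sets.

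*Bpifa1* encodes the short airway protein also called PLUNC or SPLUNC1, which lowers the surface tension of airway fluid and has antibacterial activity. In ΔJ mice its levels ran from 4.54 over a median of 4.58 to 4.63. In WT mice they ran from 4.51 over a median of 4.54 to 4.69. The WT mice covered the whole ΔJ range. The means were 4.58 ± 0.036 in ΔJ and 4.56 ± 0.067 in WT mice (SD, n = 6 each), a difference of 0.02 (limma, SE 0.052, adjusted p = 0.994) with a 95% interval from -0.09 to 0.13. Turned back from log2, the ΔJ mean was 101% of the WT mean, with an interval from 93.6% to 110%. Here and below, percentages of the WT mean are ratios of geometric means.

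*Bpifb1* encodes a long member, also named LPLUNC1, that goblet and gland cells of the airway secrete. Its levels in ΔJ mice were 0.65, 1.06, 0.79, 0.51, 0.56 and 1.19 for replicates 1 to 6. In WT mice they were 0.59, 0.86, 0.94, 0.93, 1.23 and 1.99. All 6 ΔJ mice lay inside the WT range except replicates 4 and 5, which lay just below it, and WT replicate 6 stood above all other mice. The means were 0.79 ± 0.277 in ΔJ and 1.09 ± 0.486 in WT mice (SD, n = 6 each), and the difference of -0.30 (limma, SE 0.208, adjusted p = 0.993) had an interval from -0.75 to 0.16. This interval reaches from 59.6% to 111% of the WT mean. Without WT replicate 6 the difference was -0.12, with age in the model -0.18 and among the P30 mice alone -0.11. Within the second array set the difference was -0.63 (adjusted p = 0.670) and within the first 0.04 (adjusted p = 1.00), and the term for a difference between the sets was -0.67 (SE 0.368, unadjusted p = 0.0968, adjusted p = 0.909).

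*Bpifb3*, first described as Rya3, encodes a long member whose human counterpart is known from the endoplasmic reticulum. Its levels in ΔJ mice ran from 4.61 over a median of 4.75 to 4.79. In WT mice they ran from 4.73 over a median of 4.78 to 4.81. The ranges overlapped, and the lowest mice were ΔJ replicates 5 and 4, at 4.61 and 4.69. The difference was -0.05 (limma, SE 0.052, adjusted p = 0.993), with an interval from 89.5% to 105% of the WT mean.

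*Bpifb4* encodes a long member known in humans for variants studied in long-lived people. Its levels in ΔJ mice ran from 4.02 over a median of 4.06 to 4.15, and in WT mice from 3.93 over 4.05 to 4.19. Every ΔJ value lay inside the WT range. The difference was 0.02 (limma, SE 0.063, adjusted p = 0.994), with an interval from 92.2% to 112% of the WT mean.

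*Bpifb6* is the long member at the start of the row of members. It ran from 4.05 over a median of 4.15 to 4.16 in ΔJ mice and from 4.05 over 4.12 to 4.23 in WT mice. The groups overlapped almost entirely, with a difference of -0.0029 (limma, SE 0.052, adjusted p = 0.998) and an interval from 92.3% to 108% of the WT mean. The sign of this difference turned to 0.04 with the arrays centred on the median and to 0.02 after quantile normalization.

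*Bpifb5*, a long member that lies beside *Bpifb1*, varied widely in both groups. Its levels in ΔJ mice were 3.93, 3.32, 3.65, 3.37, 3.76 and 3.21 for replicates 1 to 6. In WT mice they were 4.01, 4.23, 3.27, 3.56, 3.09 and 3.82. Every ΔJ mouse lay inside the WT range. The means were 3.54 ± 0.279 in ΔJ and 3.66 ± 0.436 in WT mice (SD, n = 6 each), and the difference of -0.12 (limma, SE 0.193, adjusted p = 0.993) had an interval from 68.7% to 123% of the WT mean.

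**Figure D1:**
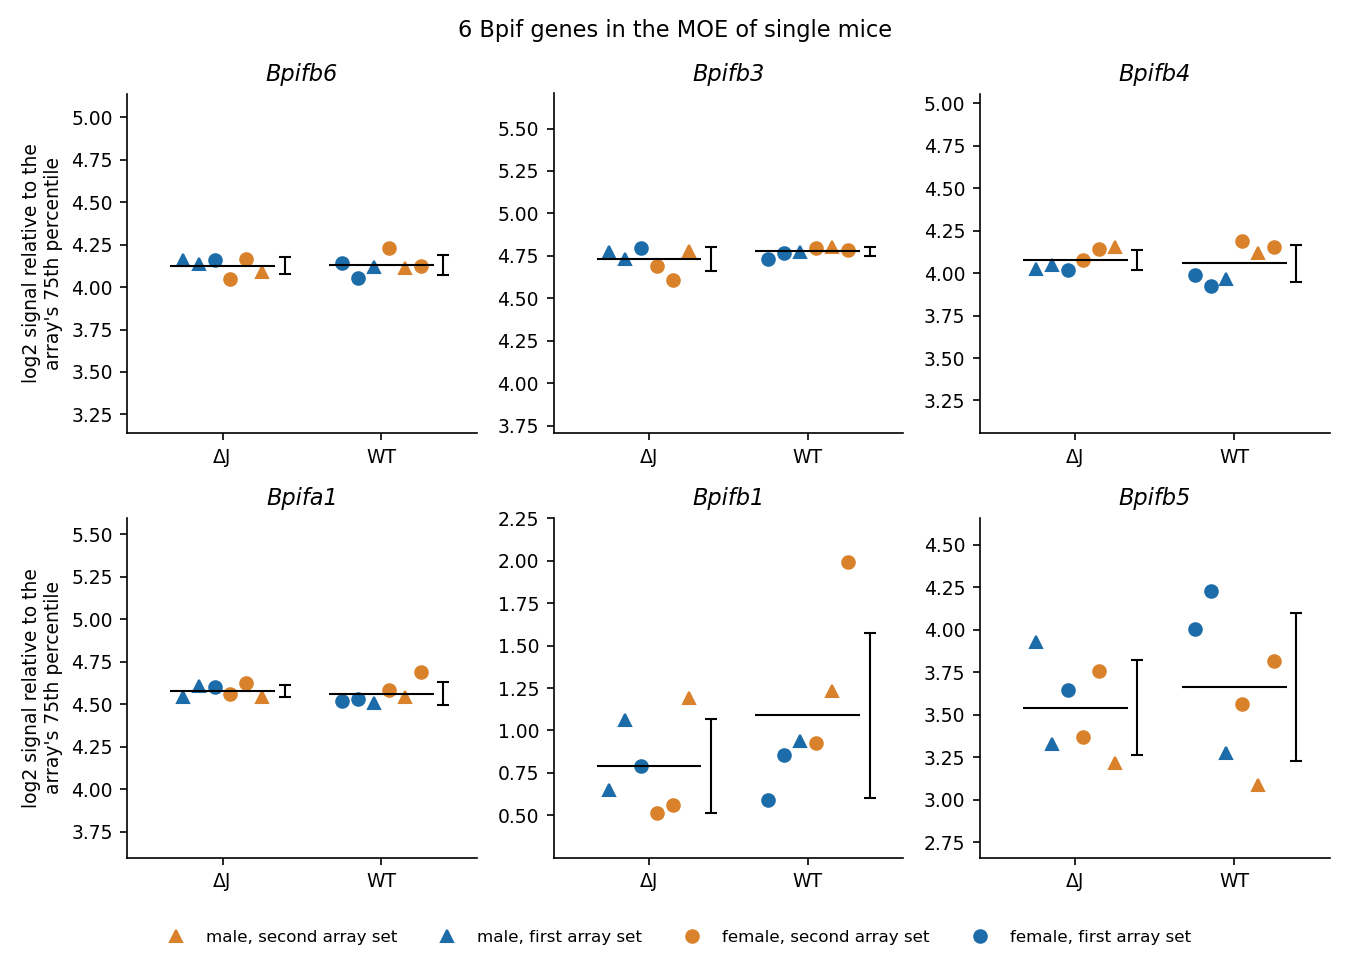
Level of the 6 genes in each mouse (log2 signal relative to the 75th percentile of the array), with ΔJ left of WT, replicates 1 to 6 from left to right, triangles for males, circles for females and colour for the array set. Lines are means and bars are SD (n = 6 each), and every panel covers the same height of 2 log2 units. *Bpifb1* (0.51 to 1.99) and *Bpifb5* (3.09 to 4.23) spread over the mice, and the other 4 genes hardly varied.

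The members split into 4 that barely varied between mice and 2 that varied widely. Over all 12 mice the SD was 0.053 for *Bpifa1*, 0.056 for *Bpifb3*, 0.085 for *Bpifb4* and 0.051 for *Bpifb6*, where the median SD of all probe sets was 0.192. For *Bpifa1*, 0.551% of all probe sets had a smaller SD, for *Bpifb6* 0.470%, for *Bpifb3* 0.807% and for *Bpifb4* 6.29%. A low spread was not particular to these 4 members. Among other bright genes the SD was 0.051 for *Omp*, 0.053 for *Cyp2g1* and 0.060 for *Bpifb9b*, but 0.228 for *Gnal*. The SD was 0.408 for *Bpifb1* and 0.355 for *Bpifb5*, above that of 88.7% and 83.5% of all probe sets. The highest mouse had 2.78 times the signal of the lowest for *Bpifb1* and 2.20 times for *Bpifb5*, against 1.13 to 1.20 times for the other 4. The deposited signals of *Bpifa1* and *Bpifb3* lay within 0.77 log2 units of the brightest probe set of each array, and those of *Bpifb4* and *Bpifb6* within 1.37. *Bpifb5* lay 1.07 to 2.17 below it and *Bpifb1* 3.30 to 4.81. Whether signals this close to the top of the scale are compressed was not tested.

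*Bpifb1* stood higher in the P33 mice than in the P30 mice, although the difference did not pass the adjustment over all probe sets. The 3 P33 mice had 1.19 (ΔJ replicate 6), 1.23 (WT replicate 5) and 1.99 (WT replicate 6). The 9 P30 mice ran from 0.51 over a median of 0.79 to 1.06. The age groups did not overlap, in either genotype, where 3.37% of all probe sets had every P33 mouse above every P30 mouse. With genotype in the model, the difference was 0.66, which is 1.59-fold (limma, SE 0.164, unadjusted p = 0.00167, adjusted p = 0.121). Over the array 21.6% of probe sets had an unadjusted p under 0.05 for age and 0.0169% an adjusted one.

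All P33 mice were in the second array set, so age was also compared inside it. All P30 mice of this set were female, whereas the P33 mice ΔJ replicate 6 and WT replicate 5 were male. Only WT replicate 6 was a P33 female, so age and sex largely overlap there. There *Bpifb1* was at 1.19 to 1.99 in the 3 P33 mice and at 0.51, 0.56 and 0.93 in the 3 P30 mice. These again did not overlap, as for 10.9% of all probe sets, and the difference was 0.67 (limma, unadjusted p = 0.0221, adjusted p = 0.741). With the array set as a block it was 0.75 (adjusted p = 0.204), and with sex added 0.82 (adjusted p = 0.614). Leaving out 1 mouse at a time gave 0.44 to 0.81 with adjusted p between 0.0408 and 0.523, and it passed 0.05 only without WT replicate 4. The lowest of these, 0.44, was without WT replicate 6.

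Of the secretory genes listed beside it, 0 passed the test for age. Of 19 measured genes of nasal glands, 5 were higher and 1 lower in P33 mice at an unadjusted p under 0.05, to be read against the 21.6% of all probe sets, among them *Lcn3*, a lipocalin of the nasal and vomeronasal glands (0.51, limma, adjusted p = 0.113), and *Dmbt1*, a secreted scavenger receptor (0.42, adjusted p = 0.140). Of 17 genes of respiratory secretory cells, 2 were higher and 1 lower, and *Pigr*, which carries immunoglobulin A into the mucus, differed by 0.98 (adjusted p = 0.123). These 3 genes, all higher in P33 mice, were picked for naming with their values in view. Over the whole gland list 13 genes stood higher and 6 lower, down to -0.62 for *Odam*. Over the respiratory list 10 stood higher and 7 lower, down to -0.70. *Pigr* was at 1.33, 1.57 and, in WT replicate 6, 2.80 in the P33 mice, and reached 1.20 in the P30 mice. The medians were 0.14 over the gland list and 0.03 over the respiratory list, beside -0.07 over all probe sets. Whether a different share of gland tissue in the samples contributes to the difference in *Bpifb1* was not tested. Among the other members, the differences between P33 and P30 mice ran from -0.34 for *Bpifb5* to 0.11 for *Bpifb4*, with adjusted p from 0.345 to 0.783.

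*Bpifb5* was lower in males than in females, again without passing the adjustment. Its levels in the 5 males were 3.93, 3.32 and 3.21 in ΔJ and 3.27 and 3.09 in WT mice. In the 7 females they were 3.65, 3.37 and 3.76 in ΔJ and 4.01, 4.23, 3.56 and 3.82 in WT mice. Both WT males lay below all 4 WT females, as for 2.88% of all probe sets, whereas ΔJ replicate 1, a male, lay above all 3 ΔJ females. With genotype in the model, males were lower by 0.39 log2 units, 76.1% of the female level (limma, log2 difference -0.39, SE 0.172, unadjusted p = 0.0414, adjusted p = 0.896). Over the array 4.65% of probe sets had an unadjusted p under 0.05 for sex and 0.0141% an adjusted one.

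The direction held under each of the settings tried. The difference was -0.45 with the array set as a block (unadjusted p = 0.00925, adjusted p = 0.610), -0.48 within the second set and -0.43 within the first. Both males of the second set were P33 mice, and its females were P30 mice except WT replicate 6. The value from that set therefore does not separate sex from age. With age in the model it was -0.33, and leaving out 1 mouse at a time gave -0.53 to -0.29. In ΔJ mice the male and female means were 3.49 ± 0.383 and 3.59 ± 0.200 (SD, n = 3 each), and in WT mice 3.18 ± 0.130 (n = 2) and 3.90 ± 0.282 (n = 4). Of the 19 measured gland genes, 6 were higher and 13 lower in males (median -0.05, beside 0.04 over all probe sets), and 0 passed the test. *Odam* and *Obp1a* (-0.32, limma, adjusted p = 0.896) were lower at an unadjusted p under 0.05, to be read against the 4.65% of all probe sets. *Odam* was also the probe set most like *Bpifb5* (r = 0.989), so it adds no separate evidence. Whether the share of gland tissue contributes to the difference in *Bpifb5* was not tested. The term for a difference in the sex effect between genotypes was 0.62 (limma, SE 0.307, unadjusted p = 0.0692, adjusted p = 1.00). For the other 5 members the difference between males and females ran from -0.04 to 0.18, with adjusted p from 0.907 to 0.983.

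**Figure D2:**
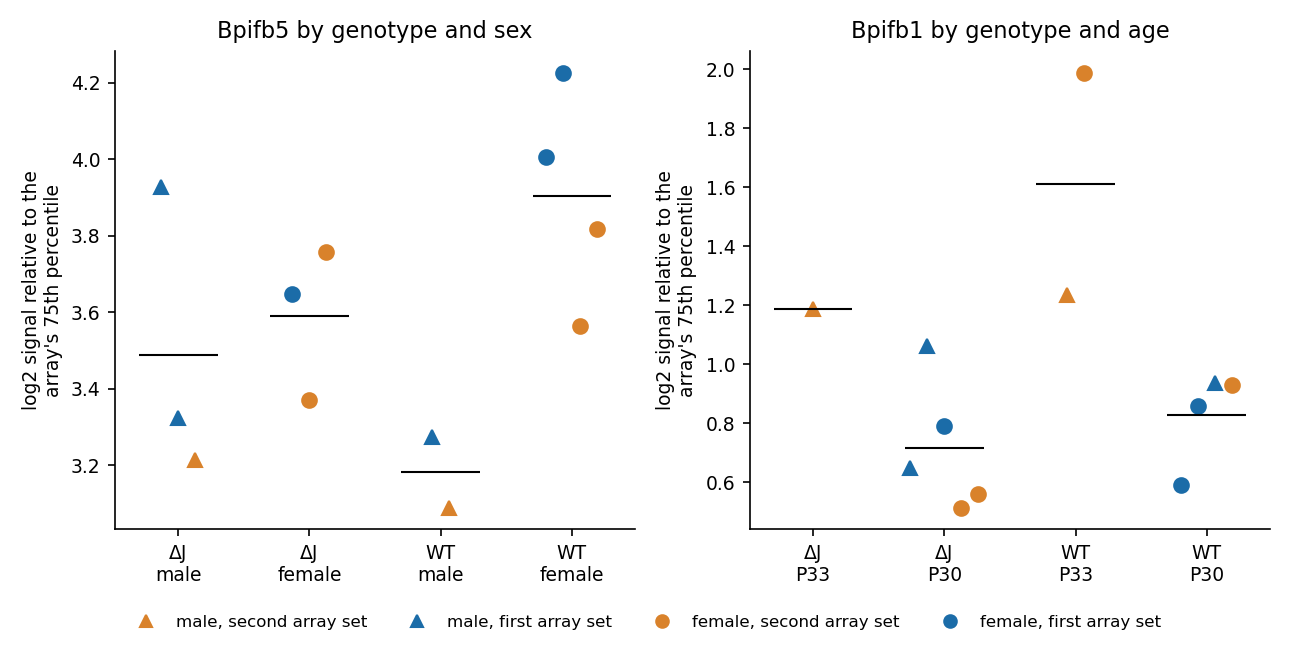
Left, *Bpifb5* in males and females of each genotype; right, *Bpifb1* in P33 and P30 mice of each genotype (both log2 signal relative to the 75th percentile of the array). Points are mice, lines are group means, triangles are males, circles are females and colour gives the array set; the P33 mice (1.19 to 1.99) lie above all P30 mice (0.51 to 1.06), and both WT males (3.09 and 3.27) below the WT females (3.56 to 4.23).

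*Bpifb4* followed the array sets. In the second set its levels were 4.08, 4.14 and 4.15 in ΔJ and 4.19, 4.12 and 4.15 in WT mice. In the first set they were 4.02, 4.05 and 4.02 in ΔJ and 3.99, 3.93 and 3.96 in WT mice. The sets did not overlap, which was so for 5.17% of all probe sets with the second set higher and 18.1% with it lower. The difference of 0.14 passed the test (limma, SE 0.041, adjusted p = 0.0141), as did 42.2% of all probe sets, and among the P30 mice alone it was 0.14 with an adjusted p of 0.0986. The other 5 members did not pass, with differences from -0.27 for *Bpifb5* to 0.26 for *Bpifb1* and adjusted p from 0.266 to 0.982. Of the 11 other family genes measured, 2 were higher and 5 lower in the second set by the same test. Age and array set overlap in this design, and the labels and the paper do not state what sets the 2 array sets apart.

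No pair of members was shown to vary together over all mice on this scale. Of the 15 pairs, 0 had an adjusted or an unadjusted p under 0.05 for Pearson's r over the 12 mice (permutation test, two-sided), and 7 had r of the same sign in both array sets. *Bpifb4* and *Bpifb6* had r = 0.36 and Spearman's rho = 0.22 over all mice (permutation p = 0.258 and 0.484, adjusted p = 0.646 and 0.703). Since *Bpifb4* separates the array sets, the relation was also taken inside each, where r was 0.81 in the second set (exact permutation p = 0.0514) and 0.84 in the first (exact permutation p = 0.0306), with 6 mice each. *Bpifb1* and *Bpifb5*, the neighbours that varied most, had r = -0.19 and rho = -0.45 (permutation p = 0.567 and 0.140, adjusted p = 0.864 and 0.631), and r changed to -0.78 without the 2 mice farthest from the median *Bpifb1* level. In the second set their r was 0.15 and in the first -0.67 (exact permutation p = 0.782 and 0.158). *Bpifb1* and *Bpifb3* had r = 0.51 and rho = 0.62 (permutation p = 0.0968 and 0.0349, adjusted p = 0.484 and 0.523). *Bpifa1* and *Bpifb5* had r = 0.923 in the second set (exact permutation p = 0.00556), -0.34 in the first (exact permutation p = 0.478) and 0.09 over all mice (permutation p = 0.777).

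These correlations depend on the scaling. On the deposited log2 values, without the shift by the 75th percentile, 5 of the 15 pairs passed the adjustment (permutation test, two-sided). They were *Bpifa1* with *Bpifb4* (r = 0.92) and with *Bpifb6* (0.82), *Bpifb4* with *Bpifb6* (0.91), and *Bpifb3* with *Bpifb4* (0.77) and with *Bpifb1* (0.67). The adjusted p of these 5 ran from 0.00015, which rests on the smallest p that 100000 permutations can give, to 0.0272. The 75th percentile itself was at or above 8.53 on every array of the second set and at or below 8.42 on every array of the first, and its part in these values was not tested.

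*Bpifb5* instead varied with genes outside the members. Among 21788 other probe sets with 1 symbol, the 5 with the highest r to it, after the mean of each array set and genotype was subtracted, were *Odam* (0.989), *Cabs1* (0.968), *Serpinb11* (0.953), *Smr3a* (0.952) and *Bpifb9b* (0.947). These are the extremes of a search over 12 mice, and for each member such a search finds a highest r, from 0.918 to 0.989, so they are given as a description. *Odam* encodes a secreted protein of the enamel-forming epithelium. Its levels were 1.45, 0.29, 0.85, 0.67, 1.31 and 0.16 in ΔJ replicates 1 to 6 and 1.47, 1.91, 0.09, 0.62, -0.02 and 1.01 in WT replicates 1 to 6. The mouse that was highest and the mouse that was lowest, WT replicates 2 and 5, were the same as for *Bpifb5*, and r was 0.938 inside the second array set and 0.997 inside the first.

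*Odam*, *Cabs1* (a calcium-binding protein known from spermatids) and *Smr3a* (a salivary protein first found as regulated by androgen in the submaxillary gland) lie within 123.5 kb of each other, at chr5:87885010-88008534 in GRCm38.p6. Inside the second array set their r with *Bpifb5* was 0.938, 0.933 and 0.903, and inside the first 0.997, 0.984 and 0.982. Of the 13 measured genes in this stretch and 250 kb to either side, 7 of the other 10 lay at or below the Y-linked background range in all 12 mice, so that their r says little. The casein gene *Csn3*, which lies between *Odam* and *Cabs1*, had r = 0.12, and *Gm7337*, partly in the background range, had r = 0.28. The lncRNA *BC051076* also lies between them and had r = 0.57, with -0.18 inside the second array set and 0.92 inside the first. Males stood below females for all 3 genes, by log2 differences of -0.74 for *Odam*, -0.68 for *Cabs1* and -0.79 for *Smr3a* (limma, unadjusted p = 0.0275, 0.0241 and 0.0330, adjusted p = 0.896 each). These share their mice with *Bpifb5* and add no separate evidence of a difference between the sexes.

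Within the cluster, *Bpifb9b* and *Bpifb9a*, which resemble the vomeromodulin that rat nasal glands secrete, had r = 0.947 and 0.909 with *Bpifb5* after the same subtraction. Inside the second set the values were 0.820 and 0.581 and inside the first 0.935 and 0.958. Both varied little in size: *Bpifb9b* ran from 5.12 to 5.30 and *Bpifb9a* from 4.71 to 4.99 over the 12 mice. For the other 10 Bpif genes of the cluster, r with *Bpifb5* ran from -0.36 for *Bpifb2* to 0.48 for *Bpifa1*.

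**Figure D3:**
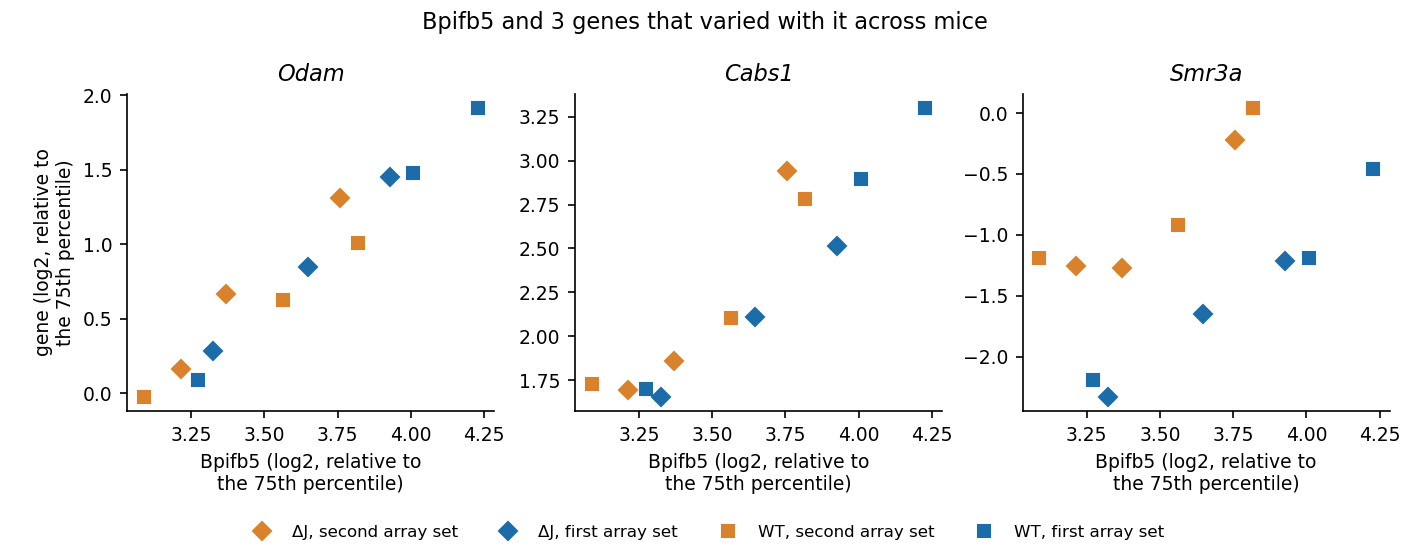
*Odam*, *Cabs1* and *Smr3a* (vertical axes) against *Bpifb5* (horizontal axes) in each mouse, all as log2 signal relative to the 75th percentile of the array. Diamonds are ΔJ mice, squares are WT mice and colour gives the array set; with the mean of each array set and genotype subtracted, r was 0.989, 0.968 and 0.952, and *Smr3a* lay on a separate line in each array set.

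For the other members, the most alike probe sets came from many chromosomes. *Bpifb1* was most like *Trp73* (r = 0.960), which encodes a factor of the p53 family that multiciliated cells need, followed by *Gm5174* (0.955), *Lrrc36* (0.932), *Slc16a11* (0.928) and *Masp2* (0.924), a protease of the lectin pathway of complement. For *Gm5174*, r was 0.977 inside the second array set and 0.114 inside the first, and its levels (-5.31 to -4.27) were at background. *Bpifa1* was followed by *Rps19-ps3*, *Klhdc1*, *Krt5*, *Slc39a4* and *Wfdc2* (r = 0.922 to 0.962), of which *Krt5* marks horizontal basal cells and *Wfdc2* is a secreted airway protein. *Bpifb3* was followed by *Nfrkb*, *Rab36*, *Klhl18*, *Zfp128* and *Slc6a20a* (0.969 to 0.987), *Bpifb4* by *Hmcn1*, *Oip5*, *Olfr1377*, *En2* and *Hhip* (0.901 to 0.918) and *Bpifb6* by *C1s2*, *Akap1*, *Rdm1*, *LTO1* and *Wfdc13* (0.919 to 0.951). For these 4 members the values behind r span at most 1.20-fold. The SD of *Bpifb3* was 0.086 in ΔJ mice of the second array set, against 0.032 in ΔJ mice of the first. In WT mice it was 0.0091 in the second set and 0.022 in the first. Its r values therefore rest largely on the ΔJ mice of the second set, which include replicate 5, the array least correlated with its set. Inside the second and the first array set, r was 0.904 and 0.0095 for *Oip5*, 0.674 and 0.344 for *Hmcn1* (both with *Bpifb4*) and 0.192 and 0.751 for *Rdm1* (with *Bpifb6*). *Oip5* (-3.20 to -2.55) lay partly in the background range.

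The rest of the family gave no call for genotype either. Of the 12 other family genes listed, 11 were measured, 3 were higher and 8 lower in ΔJ mice, and 0 passed the test or had an unadjusted p under 0.05 (median difference -0.11). *Bpifb9a* and *Bpifb9b* differed by 0.02 and 0.01 between ΔJ and WT mice. *Bpifa2*, the parotid secretory protein of saliva, differed by -0.01, *Bpifb2* by -0.07 and *Bpifc* by -0.14. *Bpifa3* (-4.86 to -3.77) and *Bpifa6* (-4.44 to -3.96) lay inside the Y-linked background range in all 12 mice, and *Bpifa5* (-3.18 to -2.67) partly, so that their differences of 0.04, -0.16 and -0.12 bear little information. The family members outside the cluster, *Lbp* and *Bpi*, which bind bacterial lipopolysaccharide, and the phospholipid transfer protein gene *Pltp* differed by -0.11, -0.16 and -0.13. *Bpi* (-3.61 to -2.95) and *Bpifc* (-3.10 to -2.13) also lay partly in the background range.

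**Figure D4:**
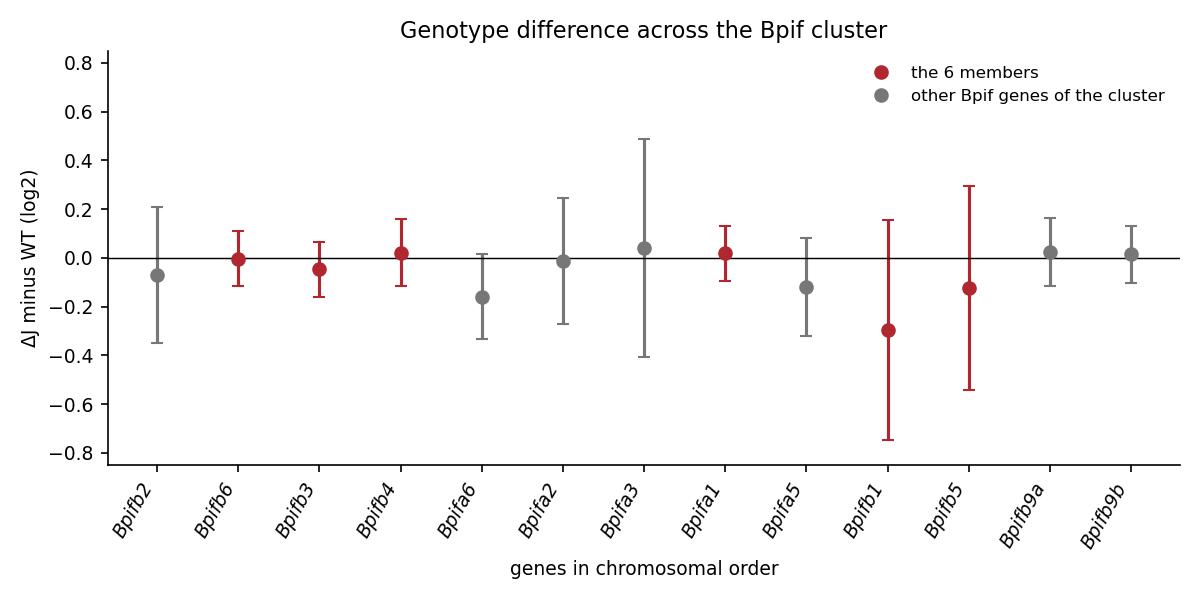
Difference between ΔJ and WT mice (log2, points) with its 95% interval (bars) from limma for the 13 Bpif genes in chromosomal order, the 6 members in red. All 13 intervals include 0, and they are widest for *Bpifb1*, *Bpifb5* and *Bpifa3*.

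None of the listed genes of glands and of other cells of the tissue passed the test for genotype. These lists hold no odorant receptor genes. Of the 19 measured gland genes, 8 were higher and 11 lower in ΔJ mice (median -0.01), with *Obp1a* at 0.04, *Obp2a* at 0.02, *Obp2b* at 0.04, the mucin *Muc5ac* at -0.30 and *Sox9* at -0.12. Of the 17 respiratory secretory genes, 2 were higher and 15 lower (median -0.09), and *Gp2*, a membrane protein that binds bacteria, had the lowest unadjusted p (-0.44, limma, unadjusted p = 0.0451, adjusted p = 0.993). *Foxa1* differed by -0.23, *Scgb3a1* by -0.02 and *Scgb3a2*, which lay inside the background range in all 12 mice (-4.40 to -3.88), by -0.09. The highest mouse was WT replicate 6 for both *Gp2* (-1.05, where the P30 mice reached -1.58) and *Foxa1* (0.87). Of the 21 genes of airway defence, 6 were higher and 15 lower (median -0.07), among them lactoferrin (*Ltf*, -0.08), the lysozymes *Lyz1* (-0.02) and *Lyz2* (0.20), *S100a9* (0.25) and *Slpi* (-0.13). In each of these 3 lists 0 genes passed, and 1 gene, *Gp2*, had an unadjusted p under 0.05.

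Markers of the other cells stood as follows between ΔJ and WT mice, again with 0 calls. For ciliated cells, *Foxj1*, *Dnah5*, *Dnah9*, *Cdhr3* and *Dnaic1* differed by -0.01, 0.03, -0.03, -0.15 and -0.08, and for sustentacular cells *Cyp2g1*, *Cyp1a2*, *Ermn*, *Sox2* and *Hepacam2* by -0.01, -0.07, -0.02, 0.13 and 0.10. For mature neurons *Omp*, *Gng13* and *Gnal* differed by 0.04, 0.10 and -0.15 and the 4 probe sets of *Cngb1* by -0.24 to -0.05, and for immature neurons *Gap43*, *Gng8*, *Stmn2* and *Tubb3* by 0.18, -0.14, 0.03 and 0.26 (*Tubb3* with an unadjusted p of 0.0341 from limma). For basal cells *Krt5*, *Krt14*, *Trp63* and *Kit* differed by -0.02, -0.01, -0.20 and -0.12, for leukocytes *Ptprc*, *Cd68*, *Adgre1*, *Cd3e* and *Elane* by 0.09, 0.02, -0.01, -0.13 and -0.07, and for blood and vessels *Alas2*, *Pecam1* and *Cdh5* by 0.30, -0.08 and -0.04.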

How the data were processed

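Total RNA of the MOE of 12 mice was measured on 1 Affymetrix Mouse Gene 1.0 ST array each. The values deposited by the authors are log2 signals of 35556 probe sets, made with Affymetrix Expression Console according to the submitters' processing notes. Its version and settings: not given in the sources used here. Following the 75th percentile shift of the paper's methods, that percentile of each array was subtracted from its deposited log2 values. Linear models were fitted over all probe sets (limma 3.58.1, R 4.3.3, lmFit and eBayes) with genotype, and with genotype plus sex, age or array set; p-values were adjusted after Benjamini-Hochberg over all probe sets and called at 0.05. Correlations used 100000 permutations (all pairings within array sets of 6). Further steps used numpy 2.4.6, scipy 1.17.1, pandas 2.3.3 and, for alignments, Biopython 1.88. The steps were tested on simulated data. Gene names came from the platform annotation (21789 with 1 symbol, 1621 with several, 12146 unnamed here). Nothing says that the mice come from separate litters, so p-values measure the spread between these mice. The number of arrays limits the precision.

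The genes named are the 6 members, the measured other family genes, the first 3 measured genes and the 2 with the smallest p for genotype of each other list, and the 5 probe sets most like each member. *Lcn3*, *Dmbt1*, *Pigr* and the neighbours of *Odam* lie outside this rule and were picked with their values in view. The members, lists and tests were chosen with earlier results of these data known. Same-numbered ΔJ and WT mice were checked for pairing: the correlation of their deviations from the group means was 0.365, 0.294, 0.419, 0.441, 0.185 and 0.385 for replicates 1 to 6. With the array set means also removed it was -0.144 to 0.078. The WT mouse most like a ΔJ mouse bore the same number for replicate 4 only. Same-numbered mice share an array set, and the main fits did not treat them as pairs. Array sets were found from the data. Alternatives covered the scaling, filters, covariates, blocks and leaving out each mouse.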

Additional observations from a re-analysis of the deposited data

Results flagged for a closer look

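Among the named genes, 186 groups of 6 mice (ΔJ or WT) were searched for 1 mouse far from the others of its genotype by Dixon's ratio of gap to range, and 11 were found, where chance gives about 1 in 20 groups. None of the 6 members was among them. Some of the searched genes were named because they followed a member across the mice, so the groups are not independent and this share is only a rough guide. Of the flagged genes, *Krt5*, *Slc39a4* and *Rps19-ps3* were picked as most like *Bpifa1*, *Wfdc13* and *LTO1* as most like *Bpifb6*, and *Hmcn1* and *Hhip* as most like *Bpifb4*. WT replicate 6, the mouse with the highest *Bpifa1* and *Bpifb1* levels, was the highest WT mouse in 5 of the 11: *Foxa1* at 0.87 (next mouse 0.53), *Krt5* at 1.03 (next 0.81), *Lbp* at 1.49 (next 1.22), *Slc39a4* at -0.63 (next -0.96) and *Rps19-ps3* at -0.67 (next -1.06). For the genes picked as most like *Bpifa1*, a high value in this mouse is partly built in by that choice. WT replicate 4 was the highest WT mouse for *Wfdc13* at -2.26 (next -2.64), and WT replicate 2 the lowest for *Stmn2* at 3.03 (next 3.28). ΔJ replicate 4 was the lowest ΔJ mouse for *Hmcn1* at -1.84 (next -1.62) and for *Hhip* at -0.55 (next -0.45). ΔJ replicate 5 was the highest ΔJ mouse for *LTO1* at -0.49 (next -0.64) and ΔJ replicate 6 for *Obp2a* at 5.08 (next 4.98).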

How the results depend on the processing

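For the 6 members, the difference between ΔJ and WT mice passed the test under 0 of the alternatives tried. Its sign turned in the second array set alone for *Bpifa1* (-0.029) and *Bpifb4* (-0.029), in the first set alone for *Bpifb1* (0.039), *Bpifb3* (0.0086) and *Bpifb6* (0.048), and for *Bpifb6* with no shift (0.0095), median centring (0.039) and quantile normalization (0.017). With 1 mouse left out it ran from -0.0055 to 0.047 for *Bpifb4* and from -0.019 to 0.017 for *Bpifb6*. The count of called probe sets over the array was 19 in the second set alone, 15 in the first, 15 in females and 28 in P30 mice, against 48, and these fits hold fewer mice. With the replicate block it was 51, *Bpifb1* kept its difference of -0.30 (adjusted p = 0.618), and the block changed no call of a member.

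Between males and females the sign turned with age in the model for *Bpifb1* (-0.018) and *Bpifb6* (0.0016), in the first set alone for *Bpifb3* (-0.0095), *Bpifb4* (0.012) and *Bpifb6* (0.0061), and with the array set block for *Bpifb4* (0.012). With 1 mouse left out, it ran from -0.038 to 0.015 for *Bpifb4* and from -0.026 to 0.0070 for *Bpifb6*. Between P33 and P30 mice it turned in the second set alone for *Bpifa1* (-0.012) and *Bpifb4* (-0.0053), and for *Bpifb5* with array set and sex in the model (0.15). With 1 mouse left out it ran from -0.021 to 0.079 for *Bpifa1* and from 0.44 to 0.81 for *Bpifb1*. Between the second and the first array set it turned in P30 mice for *Bpifb1* (-0.13) and *Bpifb6* (0.020) and after quantile normalization for *Bpifb6* (0.0080), and *Bpifb4* in P30 mice (0.14) no longer passed. With 1 mouse left out it ran from -0.030 to 0.0088 for *Bpifb3* and from -0.024 to 0.015 for *Bpifb6*. Without the percentile shift, 5 of the 15 correlations between members passed the adjustment, against 0, and that of *Bpifb3* with *Bpifb4* turned to 0.77, against -0.06. The alternatives within array sets by sex or age, and those on the array sets, were chosen after seeing the data. The cause of these changes was not tested. Sex, age and array set were not balanced over the 12 mice, and 4 members lay near the top of the signal scale.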
